A study of Mus musculus with 6 samples.

Results

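The genes described are 8 ligands of the epidermal growth factor (EGF) family, Nrg1, Nrg2, Areg, Ereg, Hbegf, Egf, Tgfa and Btc, and the receptor gene Egfr. They were chosen by name, with earlier results of these data known, and all 9 were found among the 24346 genes of the tables. Stromal cells were sorted from whole mouse colons as live Podoplanin-positive cells negative for CD45, CD31 and EpCAM, and their RNA was sequenced in 1 library per mouse. The Pdgfra-cre group comprised 3 mice with floxed Il10ra alleles and a cre recombinase driven from Pdgfra, a gene of fibroblasts (libraries 13, 23 and 25). The floxed group comprised 3 mice with the same floxed alleles (libraries 8, 9 and 43). Every mouse was 12 weeks old and was given 1% dextran sulfate sodium (DSS), an agent that injures the colonic epithelium. Both genotypes were therefore compared under DSS. Cre was carried by the Pdgfra-cre mice alone, so the presence of cre and the loss of Il10ra cannot be told apart. The Podoplanin gate is not the same as Pdgfra expression, so sorted cells that never expressed Pdgfra would keep Il10ra in both genotypes.

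EGF family ligands are made as membrane-anchored precursors, and ADAM metalloproteases cut them loose to act on nearby cells. EGF, amphiregulin and TGF-alpha bind EGFR. Epiregulin, HB-EGF and betacellulin bind EGFR and ERBB4, and neuregulins bind ERBB3 or ERBB4, which signal together with ERBB2. In the gut these ligands drive division and repair of the epithelium, and fibroblasts beneath the epithelium are a known source of neuregulin 1.

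The deposited values were FPKM (fragments scaled to transcript length in kilobases and to library size), which can be compared between genes because they are per length. Each library had 11188 to 11358 genes at 1 FPKM or more. Read totals were not stated in the sources at hand. A rough estimate from the most frequent low values put 1 fragment per kilobase of transcript at 0.113 to 0.133 FPKM. Of the gate genes, Pdpn lay between 78.3 and 124 FPKM, while Ptprc (CD45), Pecam1 (CD31) and Epcam did not exceed 1.11 FPKM. The highest Ptprc (1.04 FPKM) and Epcam (1.11 FPKM) values were both in Pdgfra-cre library 23. Il10ra, the targeted gene, was listed at 0 in all 3 Pdgfra-cre libraries and in floxed libraries 8 and 9, and was 0.418 FPKM in floxed library 43, so its deletion could not be shown.

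In every library 6 of the 9 genes reached 1 FPKM, and these were tested: Nrg1, Ereg, Hbegf, Areg, Btc and Egfr. The other 3, Nrg2, Egf and Tgfa, stayed below 1 FPKM in all 6 libraries. Expression was uneven. Ereg and Hbegf together made up most of the ligand transcripts in every library, and Egfr was present at 38.3 to 50.5 FPKM.

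**Figure D1:**
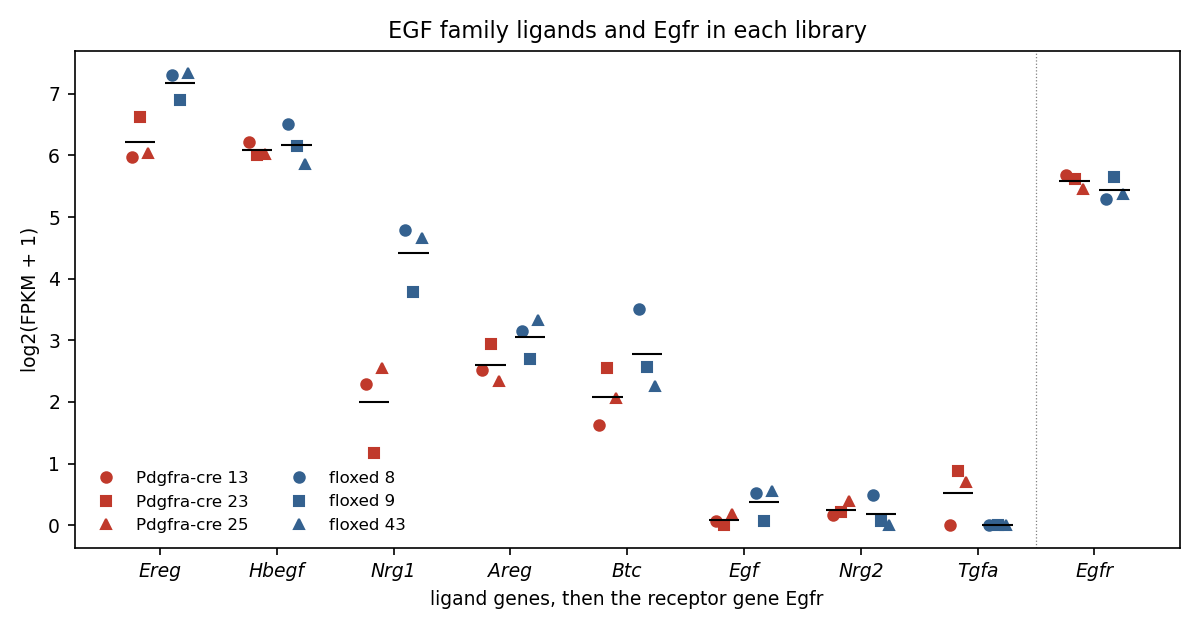
Level of each gene in each library as log2(FPKM + 1). Each point is 1 library, red for Pdgfra-cre and blue for floxed, and black bars are group means (n = 3 each). The groups are separate for Ereg and Nrg1 and overlap for Hbegf, Areg, Btc and Egfr.

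Nrg1 encodes neuregulin 1, a ligand of ERBB3 and ERBB4, and its level was lower in all 3 Pdgfra-cre libraries than in any floxed library. It was 3.88, 1.25 and 4.88 FPKM in Pdgfra-cre libraries 13, 23 and 25, against 26.6, 12.8 and 24.2 FPKM in floxed libraries 8, 9 and 43. The highest Pdgfra-cre value lay below the lowest floxed value. In bulk libraries, fewer cells of a type and less RNA per cell cannot be told apart. Group means differed 6.35-fold, at 3.34 ± 1.87 FPKM in Pdgfra-cre and 21.2 ± 7.39 FPKM in floxed (SD, n = 3 each).

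The log2 fold change of Nrg1 was -2.40 (95% interval -3.27 to -1.54) on the log2(FPKM + 1) scale, which understates differences at low FPKM. Of 11429 tested genes, 4 had a fold change this low or lower, Nrg1 included, and Nrg1 ranked number 12 by unadjusted p (0.000129 in limma). Its p adjusted over all tested genes was 0.107 in limma, which does not pass the threshold of 0.05. Without Pdgfra-cre library 25 the adjusted p from limma was 0.0485, with a log2 fold change of -2.68. Leaving out any other single library gave an adjusted p of 0.108 to 0.371 in limma.

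Ereg encodes epiregulin, which binds EGFR and ERBB4, and it was the most abundant ligand in the floxed libraries. It was 61.9, 97.0 and 64.7 FPKM in Pdgfra-cre libraries 13, 23 and 25, against 157, 118 and 160 FPKM in floxed libraries 8, 9 and 43. The groups did not overlap, and the 2 nearest libraries were Pdgfra-cre 23 and floxed 9. Group means were 74.5 ± 19.5 FPKM in Pdgfra-cre and 145 ± 23.6 FPKM in floxed (SD, n = 3 each), 1.95-fold apart. The log2 fold change was -0.97 (95% interval -1.40 to -0.54), and 135 tested genes were at or below it. The adjusted p was 0.156 in limma, so Ereg did not pass either.

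Across all 11429 tested genes, 0 passed an adjusted p of 0.05 in limma (0%), while 1253 had an unadjusted p under 0.05 (11%). Among the 6 tested family genes 0 passed after adjustment. At an unadjusted p under 0.05, 2 of the 6 were lower in Pdgfra-cre (Nrg1 and Ereg), where 5.49% of all tested genes were, and 0 were higher. Those same 2 were the genes whose groups did not overlap, with Pdgfra-cre below floxed. That arrangement held for 8.29% of all tested genes. Over the 6 genes the median log2 fold change was -0.58, beside 0.00 over all tested genes.

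**Figure D2:**
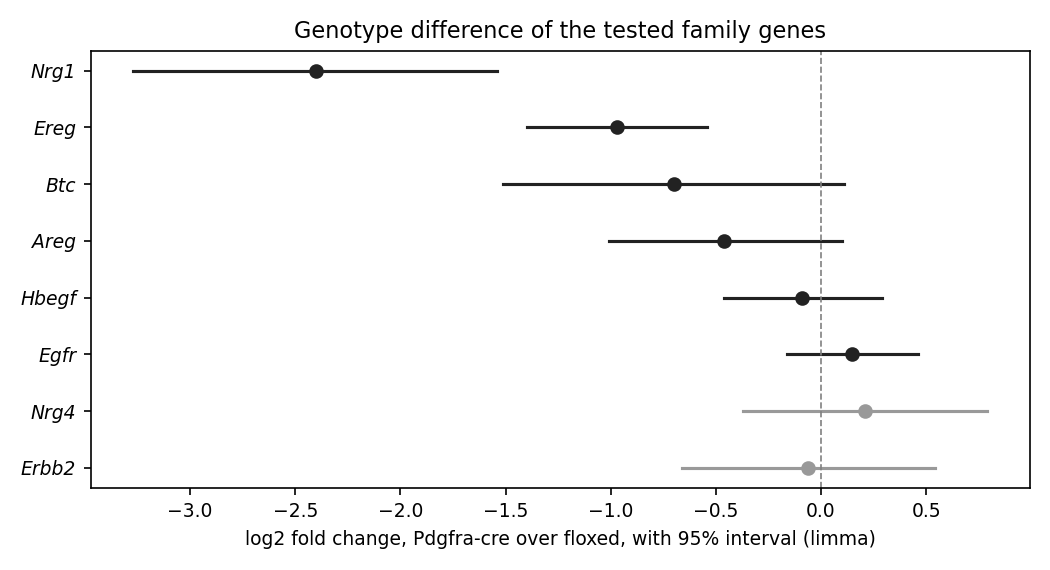
Log2 fold change of Pdgfra-cre over floxed for each tested family gene, with its 95% interval from limma (n = 3 each); grey marks Nrg4 and Erbb2, which are relatives outside the 9 genes. The intervals of Nrg1 and Ereg lie below 0 before adjustment over all genes, and the other 6 include 0.

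Hbegf encodes HB-EGF, a ligand of EGFR and ERBB4 that wounded and inflamed tissue is known to induce. It was 73.5, 63.6 and 63.8 FPKM in Pdgfra-cre libraries 13, 23 and 25, against 89.6, 70.5 and 57.0 FPKM in floxed libraries 8, 9 and 43. The Pdgfra-cre values lay within the range of the floxed ones. The log2 fold change was -0.09 (95% interval -0.46 to 0.29; adjusted p = 0.901 in limma), and it was 0.07 without floxed library 8. The interval does not reach the difference of -0.97 estimated for Ereg.

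Areg encodes amphiregulin, an EGFR ligand also made by several lymphoid and mast cells. It was 4.76, 6.64 and 4.05 FPKM in Pdgfra-cre libraries 13, 23 and 25, against 7.88, 5.46 and 9.01 FPKM in floxed libraries 8, 9 and 43. The groups overlapped through Pdgfra-cre 23 and floxed 9, the same libraries that lay closest for Ereg. The log2 fold change was -0.46 (95% interval -1.01 to 0.10; adjusted p = 0.56 in limma).

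Btc encodes betacellulin, a ligand of EGFR and ERBB4. It was 2.09, 4.84 and 3.17 FPKM in Pdgfra-cre libraries 13, 23 and 25, against 10.4, 4.91 and 3.76 FPKM in floxed libraries 8, 9 and 43. Floxed library 8 stood above the other 5. The log2 fold change was -0.70 (95% interval -1.51 to 0.11; adjusted p = 0.54 in limma), and -0.33 without floxed library 8.

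Ereg, Areg and Btc lie beside each other on chromosome 5 with Epgn, which encodes the EGFR ligand epigen. In the mm10 annotation of GENCODE M21, Epgn spans 91027464 to 91035215, Ereg 91074622 to 91093646, Areg 91139599 to 91148432 (all on the plus strand) and Btc 91357261 to 91402994 (minus strand). These are the 4 protein-coding genes of a stretch of 376 kb. Epgn was near the limit of detection, at 0.561, 0 and 0.537 FPKM in Pdgfra-cre libraries 13, 23 and 25, against 0, 0.0788 and 1.34 FPKM in floxed libraries 8, 9 and 43.

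The flanking protein-coding genes, chosen for their position, showed no common direction. Mthfd2l, on the Epgn side, averaged 3.35 ± 1.38 FPKM in Pdgfra-cre and 4.95 ± 2.05 FPKM in floxed (SD, n = 3 each; log2 fold change -0.44, adjusted p = 0.686 in limma). Parm1, on the Btc side, averaged 15.7 ± 4.81 FPKM in Pdgfra-cre and 8.53 ± 4.54 FPKM in floxed (log2 fold change 0.89, adjusted p = 0.409 in limma).

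RefSeq promoter sequences (build GRCm38.p6, 250 bases before to 50 after the start) matched 5 of the 9 genes: Areg, Btc, Egf, Tgfa and Egfr. Nrg1, Nrg2, Ereg and Hbegf were not matched. The promoters of Areg (chr5:91139349-91139648, plus strand) and Btc (chr5:91402945-91403244, minus strand) are shown because both genes lie beside Ereg and are expressed. Capitals mark matches on either strand to any of 5 motifs.
Areg: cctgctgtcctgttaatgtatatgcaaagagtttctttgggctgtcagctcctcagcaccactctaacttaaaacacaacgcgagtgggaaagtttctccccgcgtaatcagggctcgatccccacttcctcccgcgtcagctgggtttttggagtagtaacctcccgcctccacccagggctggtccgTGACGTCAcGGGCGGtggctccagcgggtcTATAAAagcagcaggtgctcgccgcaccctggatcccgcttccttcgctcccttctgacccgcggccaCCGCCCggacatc
Btc: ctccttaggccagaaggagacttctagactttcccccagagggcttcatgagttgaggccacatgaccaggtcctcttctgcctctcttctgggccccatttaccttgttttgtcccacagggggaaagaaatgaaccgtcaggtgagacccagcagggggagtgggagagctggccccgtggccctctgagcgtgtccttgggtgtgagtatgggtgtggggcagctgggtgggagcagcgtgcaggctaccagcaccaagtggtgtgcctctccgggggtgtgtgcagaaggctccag

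The motifs searched were the TATA box (TATAAA), the GC box (GGGCGG), AP-1 (TGANTCA), the cAMP response element (TGACGTCA) and a STAT motif (TTCNNNGAA). The Areg window held 1 TATA box, 2 GC boxes and 1 cAMP response element, of which no 2 overlapped. Among all 32851 promoters of the table, 13.6% held the TATA letters, 35.7% the GC box and 1.79% the cAMP response element. None of the 5 motifs was in the Btc window. The AP-1 and STAT letters, held by 7.81% and 8.3% of all promoters, were in neither window. GC content was 59.3% for Areg and 60.3% for Btc, beside a median of 52.7% over the table.

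The remaining ligands were close to 0. Tgfa, which encodes the EGFR ligand TGF-alpha, was 0, 0.848 and 0.626 FPKM in Pdgfra-cre libraries 13, 23 and 25, and was listed at 0 in all 3 floxed libraries. By the rough depth estimate 33.8 and 25 fragments lay behind the values in Pdgfra-cre 23 and 25. The two-sided exact permutation p was 0.4, and with 3 libraries a group it cannot fall below 0.1. The summed level of 15 epithelial markers was 30.1, 52.7 and 12.5 FPKM in Pdgfra-cre 13, 23 and 25, against 6.69, 26.6 and 7.53 FPKM in floxed 8, 9 and 43. In Pdgfra-cre 23 most of that sum came from the keratin genes Krt8 (11.5 FPKM), Krt18 (12.1 FPKM) and Krt19 (15.4 FPKM). Krt19 is also on the list of mesothelial markers, whose sum was highest in that library too, at 82.8 FPKM. Krt20, Vil1, Cdx2 and Slc26a3 were listed at 0 there. The rest of the epithelial list was detected in that library. Lgals4 was 6.7, Car1 3.06, Cldn7 1.18, Epcam 1.11, Cdh1 0.664, Cdx1 0.602, Cldn3 0.39 and Muc2 0.0317 FPKM. The part of epithelial or mesothelial cells in the Tgfa values was not tested.

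Egf, which encodes the founding ligand, was 0.0463, 0 and 0.133 FPKM in Pdgfra-cre libraries 13, 23 and 25, against 0.437, 0.0519 and 0.464 FPKM in floxed libraries 8, 9 and 43 (exact permutation p = 0.2). Nrg2, which encodes neuregulin 2, was 0.12, 0.158 and 0.307 FPKM in Pdgfra-cre, against 0.399, 0.045 and 0 FPKM in floxed (exact permutation p = 0.6). These values rest on at most 18.3 estimated fragments, and neither gene had separate groups. The library kit does not keep the strand, and the spans of both, introns included, overlap genes on the opposite strand. Reads cannot be told apart where transcripts of opposite strands overlap, and overlap of exons was not checked. The same holds for Nrg1 (Gm26578), Ereg (Gm19610), Egfr (Egfros) and Tgfa (Gm43917).

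Of the other neuregulins outside the 9 genes, Nrg3 was listed at 0 in all 6 libraries. Nrg4, an ERBB4 ligand, was 2.14, 1.2 and 1.23 FPKM in Pdgfra-cre libraries 13, 23 and 25, against 1.33, 0.96 and 1.16 FPKM in floxed libraries 8, 9 and 43 (log2 fold change 0.21, 95% interval -0.37 to 0.79; adjusted p = 0.841 in limma). In Pdgfra-cre library 23 its 1.2 FPKM stood beside 1.25 FPKM of Nrg1. Nrg4 overlaps Fbxo22 on the opposite strand, so some of its reads may belong to that gene.

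On the receptor side, Egfr, the shared receptor of most of these ligands, was 50.5, 48.3 and 42.7 FPKM in Pdgfra-cre libraries 13, 23 and 25, against 38.3, 49.0 and 40.5 FPKM in floxed libraries 8, 9 and 43. The groups overlapped. The log2 fold change was 0.15 (95% interval -0.16 to 0.46; adjusted p = 0.775 in limma).

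The ERBB partners were low. Erbb2, the co-receptor that binds no ligand itself, was 6.59, 3.6 and 8.1 FPKM in Pdgfra-cre libraries 13, 23 and 25, against 6.05, 6.83 and 5.51 FPKM in floxed libraries 8, 9 and 43. Its log2 fold change was -0.06 (95% interval -0.66 to 0.54; adjusted p = 0.967 in limma), with a sign that turned to 0.23 without Pdgfra-cre library 23. Erbb3 lay between 0.19 and 1.44 FPKM, and Erbb4 was listed at 0 in all 6 libraries. The receptors that bind neuregulin 1 were near or at 0 in the libraries that held Nrg1 transcripts, while Egfr was well above them. Mien1 overlaps the span of Erbb2 on the opposite strand, so some of the Erbb2 reads may belong to that gene.

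Ereg and Hbegf headed the order of the ligands by mean level in both genotypes, and Nrg1 stood lower in it in Pdgfra-cre libraries. In Pdgfra-cre libraries it ran Ereg (74.5 FPKM as group mean), Hbegf (67), Areg (5.15), Btc (3.37) and Nrg1 (3.34). The ranges of Ereg and Hbegf overlapped there, with Hbegf above Ereg in library 13, and so did the ranges of Areg, Btc and Nrg1 among themselves. In floxed libraries it ran Ereg (145 FPKM), Hbegf (72.4), Nrg1 (21.2), Areg (7.45) and Btc (6.36). The first 3 and Areg were separate from each other in the floxed libraries, and only Areg and Btc overlapped among the 5.

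The sum over the 8 ligand genes was 146, 174 and 142 FPKM in Pdgfra-cre libraries 13, 23 and 25, against 293, 212 and 254 FPKM in floxed libraries 8, 9 and 43. Every Pdgfra-cre sum lay below every floxed one. Means were 154 ± 17.7 FPKM in Pdgfra-cre and 253 ± 40.6 FPKM in floxed (SD, n = 3 each), a ratio of 0.609. No test is given, because the sum was formed over genes chosen with results known. Without Ereg and Nrg1 the sums overlapped, at 72.1 to 80.5 FPKM in Pdgfra-cre and 70.2 to 109 FPKM in floxed.

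Shares within the pool are bound to each other, so they restate the levels above and are not a further result. Nrg1 made up 2.65%, 0.718% and 3.45% of the pool in Pdgfra-cre libraries 13, 23 and 25, against 9.07%, 6.03% and 9.53% in floxed libraries 8, 9 and 43. Hbegf made up 50.2%, 36.5% and 45% in Pdgfra-cre, against 30.6%, 33.3% and 22.4% in floxed, although its levels overlapped between the groups. Ereg made up 42.3% to 55.6% in Pdgfra-cre and 53.8% to 62.9% in floxed, with overlap. Summed ligand FPKM per Egfr FPKM was 2.89 to 3.61 in Pdgfra-cre and 4.32 to 7.65 in floxed.

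**Figure D3:**
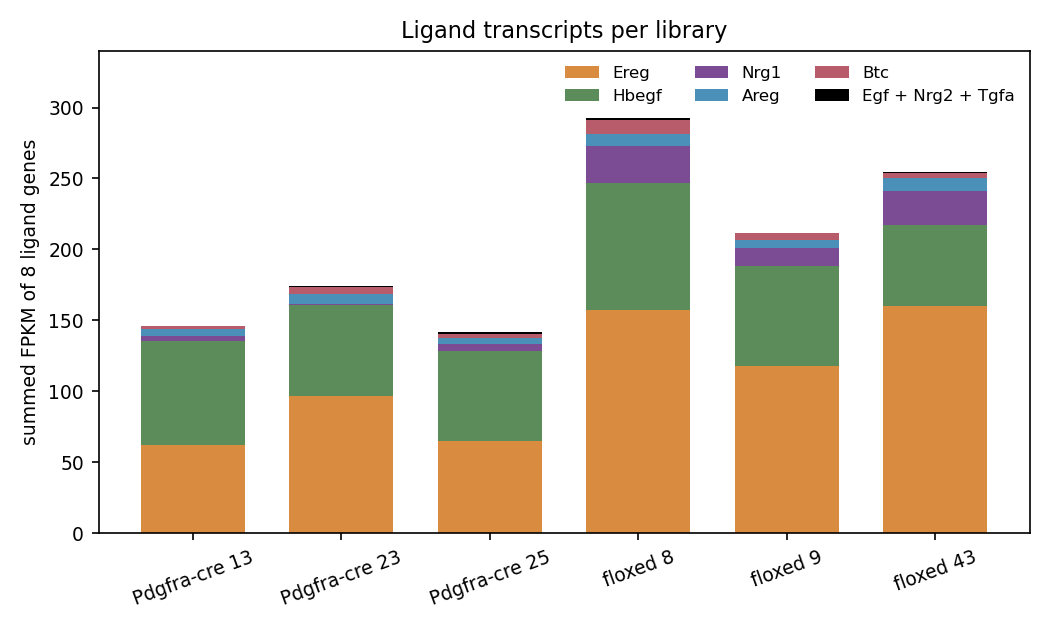
Summed FPKM of the 8 ligand genes in each library, stacked by gene, with the 3 Pdgfra-cre libraries left of the 3 floxed libraries. Ereg and Hbegf fill most of each bar, and the Nrg1 and Ereg segments are smaller in the Pdgfra-cre bars.

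In Pdgfra-cre library 23, Nrg1 and Ereg differed in how their values ran beside markers of stromal subsets. Of 13 markers of PDGFRA-high fibroblasts, the cells under the surface epithelium that are known to express Nrg1, all 13 had values below 0 for the log2 fold change, as did 49.7% of all tested genes. Their median was -0.65, the groups did not overlap in 7 (8.29% of all tested genes were lower in this way), and 0 passed the adjusted threshold in limma. Their summed level was 633, 489 and 629 FPKM in Pdgfra-cre libraries 13, 23 and 25, against 778, 836 and 1070 FPKM in floxed libraries 8, 9 and 43. Bmp4, a bone morphogenetic protein and the most abundant of them, averaged 162 ± 7.12 FPKM in Pdgfra-cre and 262 ± 70.4 FPKM in floxed (SD, n = 3 each).

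As a share of that sum, a measure chosen after the values were seen, Nrg1 came to 0.613%, 0.256% and 0.776% of the marker sum in Pdgfra-cre libraries 13, 23 and 25, against 3.41%, 1.53% and 2.27% in floxed libraries 8, 9 and 43. Ereg came to 9.77%, 19.8% and 10.3% in Pdgfra-cre, against 20.2%, 14.1% and 14.9% in floxed. Its groups overlapped through Pdgfra-cre library 23, while the shares in libraries 13 and 25 lay below every floxed one. The sum is mostly Bmp4, F3 and Pdgfra, and the markers were not lower to one extent. The ratio of Pdgfra-cre to floxed means was 0.796 for Pdgfra, 0.62 for Bmp4, 0.409 for Col4a6 and 0.384 for Bmp5, beside 0.158 for Nrg1. Pdgfra-cre library 23 held the lowest Nrg1 and the lowest marker sum, yet the highest Ereg of its genotype.

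Levels of other stromal marker lists differed between the genotypes too. The summed level of 10 smooth muscle markers was 343 to 794 FPKM in Pdgfra-cre and 1260 to 1350 FPKM in floxed, lowest in Pdgfra-cre 23. All 10 had a log2 fold change below 0, as did 49.7% of all tested genes. All 10 also had separate groups, where 8.29% of all tested genes were lower in this way. Their median was -1.15, further below 0 than the -0.65 of the PDGFRA-high list, and 0 passed the adjusted threshold in limma. The summed level of 12 markers of CD34-positive adventitial fibroblasts was 6470 to 10400 FPKM in Pdgfra-cre and 4320 to 5320 FPKM in floxed, highest in Pdgfra-cre 23. Ly6a (4480 FPKM) and Ly6c1 (1980 FPKM) made up most of the sum there. Pi16, Igfbp6, Has1, Clec3b, Sfrp1 and Grem1 also peaked there, Dpp4 and Ackr4 were lowest there, and Cd34 and Cd81 were neither. The log2 fold change was above 0 in 11 and below 0 in 1, with a median of 0.47. In 7 the groups were separate with Pdgfra-cre higher, as in 8.07% of all tested genes, and 0 passed in limma. The 10 pan-fibroblast markers summed to 20300 to 20500 FPKM in Pdgfra-cre and 17100 to 20300 FPKM in floxed.

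Among markers of cells other than fibroblasts and muscle, the 8 neutrophil genes found in the tables summed to 70.6, 248 and 93.2 FPKM in Pdgfra-cre libraries 13, 23 and 25, against 88.8 to 107 FPKM in floxed. G0s2 made up most of that sum outside Pdgfra-cre 23, and was 50.6 to 77.9 FPKM in Pdgfra-cre and 86.9 to 93.1 FPKM in floxed. The defining gene S100a8 went the other way, at 9.42, 94.7 and 6.9 FPKM in Pdgfra-cre 13, 23 and 25, against 1.1, 6.84 and 0 FPKM in floxed 8, 9 and 43. The 7 mesothelial markers found summed to 16.2 to 82.8 FPKM in Pdgfra-cre, highest in library 23, and 3.13 to 13.6 FPKM in floxed. The 11 macrophage and monocyte markers summed to 17.6 to 58.6 FPKM in Pdgfra-cre, highest in library 23, and 19 to 30 FPKM in floxed. The 8 mast cell markers summed to 4.93 to 7.1 FPKM in Pdgfra-cre and 0.809 to 8.02 FPKM in floxed, nearly all of it Kit, which interstitial cells of Cajal express too. Mcpt4 and Ms4a2 were listed at 0 throughout, and none of the other 5 exceeded 0.573 FPKM. Without Pdgfra-cre library 23 the log2 fold changes were -1.99 for Nrg1 and -1.17 for Ereg. The part of cell makeup in the ligand values was not tested.

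**Figure D4:**
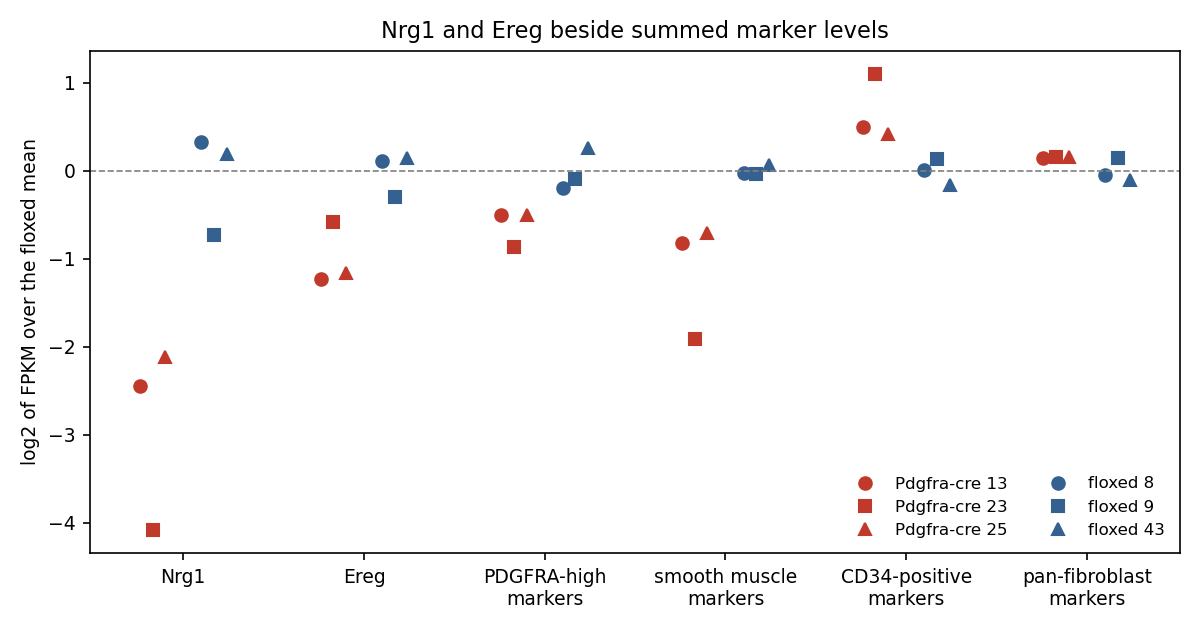
Nrg1, Ereg and the summed level of 4 marker lists in each library, as log2 of FPKM over the mean of the floxed libraries (dashed line at 0). Each point is 1 library, red for Pdgfra-cre and blue for floxed; Nrg1 lies further below the floxed mean than the PDGFRA-high marker sum does in each Pdgfra-cre library.

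Some genes followed nearly the same profile as Nrg1 over the 6 libraries. Likeness was the root mean square distance between log2 profiles scaled to an SD of 1, over 7903 genes with a mean of at least 5 FPKM. With 6 values per gene and so many genes, close profiles can arise by chance. Whether these genes share regulation was not tested. Nearest to Nrg1 was Rgs2 (distance 0.0495), which encodes a regulator of G protein signaling, at 27.3 FPKM in Pdgfra-cre and 54.7 FPKM in floxed as group means. Next were the kinase gene Plk2 (0.109), Svopl (0.114), the dynein gene Dnaic1 (0.119) and Wdr46 (0.132).

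The nearest profiles to Ereg were those of Smarce1 (distance 0.111), a chromatin remodelling subunit gene, Mier2 (0.143), Tank (0.183), Bcar1 (0.2) and Rnf115 (0.217). Smarce1 averaged 18.4 FPKM in Pdgfra-cre and 20.1 FPKM in floxed, a far smaller difference than that of Ereg. The scaled distance compares shape and not size. The genes nearest to Hbegf were Abcf2 (0.0846) and Gtf2f2 (0.0891), the nearest to Areg was Casd1 (0.181) and the nearest to Egfr was Psph (0.0771).

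Genes that release the ligands and move them to the cell surface were expressed in both genotypes. Of 13 listed genes 12 were tested, 0 passed the adjusted threshold in limma, and the median log2 fold change was 0.10. At an unadjusted p under 0.05, 1 was higher and 1 lower, where 5.47% of all tested genes were higher and 5.49% lower. Adam17, the main sheddase of Areg, Ereg, Hbegf and Tgfa, averaged 32.9 ± 4.54 FPKM in Pdgfra-cre and 27.8 ± 3.34 FPKM in floxed (SD, n = 3 each; adjusted p = 0.658 in limma). Tmed2, which encodes a cargo receptor of the secretory pathway and was the most abundant of the list, averaged 378 ± 24.8 FPKM in Pdgfra-cre and 352 ± 39.4 FPKM in floxed.

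Rhbdf2 encodes iRhom2, a partner that brings ADAM17 to the surface, and was 5.17, 4.06 and 4.84 FPKM in Pdgfra-cre libraries 13, 23 and 25, against 7.82, 6.84 and 7.89 FPKM in floxed libraries 8, 9 and 43. Its groups were separate (log2 fold change -0.58, adjusted p = 0.287 in limma). Adam15, another metalloprotease gene, had separate groups in the other direction, with 54.7 ± 7.61 FPKM in Pdgfra-cre and 42.2 ± 0.956 FPKM in floxed (log2 fold change 0.36, adjusted p = 0.358 in limma).

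The adaptors and kinases that carry the signal from EGFR to ERK were all expressed. All 18 listed genes were tested, 0 passed the adjusted threshold in limma, and the median log2 fold change was -0.02. At an unadjusted p under 0.05, 1 was higher, where 5.47% of all tested genes were. Hras, a RAS GTPase gene, averaged 10.9 ± 1.09 FPKM in Pdgfra-cre and 7.78 ± 0.823 FPKM in floxed (SD, n = 3 each; adjusted p = 0.376 in limma). The MEK1 gene Map2k1 overlapped between groups, at 38.7 ± 5.28 FPKM in Pdgfra-cre and 47.6 ± 6.49 FPKM in floxed.

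Feedback inhibitors of EGFR and ERK were represented by 18 listed genes, of which 16 were tested. Of these 0 passed in limma, and the median log2 fold change was -0.07. At an unadjusted p under 0.05, 1 was higher and 1 lower, where 5.47% of all tested genes were higher and 5.49% lower. Errfi1, which encodes the EGFR inhibitor MIG6, was the most abundant, at 262 ± 74.4 FPKM in Pdgfra-cre and 237 ± 22.7 FPKM in floxed (SD, n = 3 each; adjusted p = 0.898 in limma). Spry1, a Sprouty inhibitor of RAS signaling, was 19.2, 15.4 and 23.7 FPKM in Pdgfra-cre libraries 13, 23 and 25, against 30.2, 26.1 and 37.5 FPKM in floxed libraries 8, 9 and 43, with separate groups (log2 fold change -0.66, adjusted p = 0.247 in limma). Cblb, a ubiquitin ligase gene, was separate with higher values in Pdgfra-cre (9.49 ± 1.78 FPKM) than in floxed (5.44 ± 0.961 FPKM; log2 fold change 0.70, adjusted p = 0.254 in limma). Spred1, another inhibitor of RAS, overlapped between groups at 13.4 ± 6.1 FPKM in Pdgfra-cre and 6.95 ± 2.19 FPKM in floxed.

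Transcripts that ERK is known to induce, as many other signals do, ranged from Etv4, at no more than 0.0988 FPKM, to Fos, at 2950 FPKM or more. Of 20 listed genes 19 were tested, 0 passed in limma, and the median log2 fold change was -0.07. At an unadjusted p under 0.05, 4 were higher (Fosl1, Myc, Maff and Plaur) and 1 was lower (Egr2). Of all tested genes 5.47% were higher and 5.49% lower in this way. Groups were separate with Pdgfra-cre higher in 3 and lower in 1, where 8.07% and 8.29% of all tested genes were. Fos, an AP-1 subunit gene, averaged 3140 ± 203 FPKM in Pdgfra-cre and 3290 ± 274 FPKM in floxed (SD, n = 3 each; adjusted p = 0.899 in limma). Fosl1, another AP-1 subunit gene, was 11, 12 and 7.38 FPKM in Pdgfra-cre libraries 13, 23 and 25, against 5.99, 6.22 and 4.29 FPKM in floxed libraries 8, 9 and 43 (log2 fold change 0.76, adjusted p = 0.254 in limma). Egr2, a zinc finger factor gene, had separate groups in the other direction, with 63.9 ± 11 FPKM in Pdgfra-cre and 89.2 ± 5.33 FPKM in floxed (adjusted p = 0.243 in limma). Myc averaged 149 ± 7.5 FPKM in Pdgfra-cre and 115 ± 14.5 FPKM in floxed, also without overlap (adjusted p = 0.287 in limma).

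**Figure D5:**
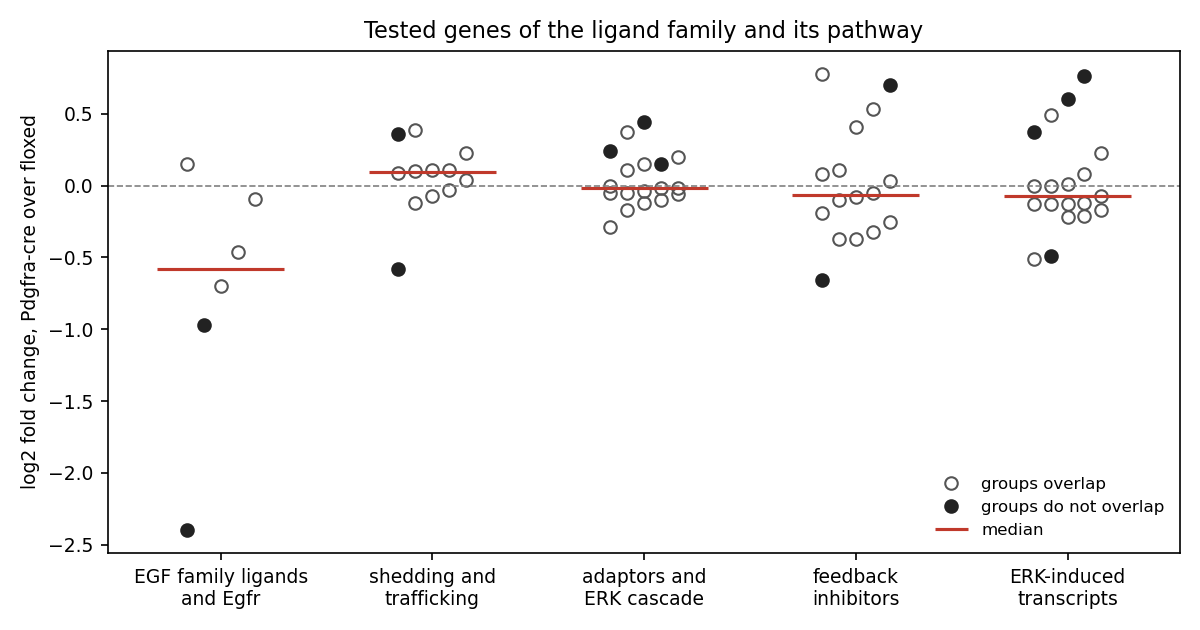
Log2 fold change of Pdgfra-cre over floxed for each tested gene of the ligand family and of 4 pathway lists; filled points are genes whose groups do not overlap, open points overlap, and red bars are list medians. The 4 pathway medians lie between -0.07 and 0.10, and the median of the family genes is -0.58.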

How the data were processed

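The authors deposited 1 table of gene-level FPKM per library. Per the labels' protocols, full-length cDNA was made from total RNA and turned into libraries with a transposase kit, so strand was lost. Per the submitters' processing notes, the tools were TopHat2 2.1.1, Bowtie2 2.2.8, SAMtools 0.1.18 and Cuffdiff 2.2.1 on mm10. The annotation and the program options are not given in the sources used here. FPKM were compared as log2(FPKM + 1) with limma 3.58.1 in R 4.3.3, using a variance trend. Genes at 1 FPKM or more in 3 or more libraries were tested, which were 11429 of 24346. P values were adjusted by the Benjamini-Hochberg method over all tested genes (threshold 0.05), and the fit was tested on simulated data. Genes below the filter had an exact permutation test. Members and gene lists were chosen with earlier results of these data known.

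Named genes were all members, their relatives and ERBB partners, the most abundant and the 3 lowest-p genes of each pathway list, the most abundant gene of each marker list, and the 5 nearest profiles of each member averaging 5 FPKM or more. Some marker genes enter only as part of a list sum, and some nearest profiles are not listed singly. Some genes that this rule names are not reported here.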

Additional observations from a re-analysis of the deposited data

How the results depend on the processing

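The number of genes past the adjusted threshold in limma was 0 with all libraries under the 2 other pseudocounts (0.1 and 5), 2 other filters (none and 5 FPKM), 3 other scalings, no variance trend, a robust prior and array weights. Leaving out 1 library gave 0 to 31 genes: 31 without Pdgfra-cre library 25, 3 without Pdgfra-cre library 13 and 2 without floxed library 43. Of the 6 tested family genes 0 to 1 passed when a library was left out, the 1 being Nrg1 without Pdgfra-cre library 25. Over 16 alternatives the log2 fold change of Nrg1 ran from -2.76 to -1.63 (adjusted p 0.0485 to 0.377 in limma) and that of Ereg from -1.17 to -0.85 (0.0688 to 0.386). The filters, no variance trend and the robust prior cannot change a log2 fold change, only its p. Median-of-ratios scaling could hardly change it, since its size factors were 1.0069 to 1.0111. Hbegf changed sign without floxed library 8 (0.07, in a range of -0.25 to 0.07 over libraries left out). Erbb2 did so with array weights (0.07), without Pdgfra-cre library 23 (0.23) and without floxed library 9 (0.01), in a range of -0.27 to 0.23, and the cause was not tested. The ratio of the ligand sums ran from 0.563 to 0.662, and 0 pathway list genes passed under any alternative. The ERK-induced median was -0.15 after quantile normalization and -0.16 after rescaling to TPM. Rescaling to TPM shifted the median of all genes by -0.09, and relative to it Nrg1 was at -2.56 and Ereg at -0.98. No paired analysis was made, because the labels give no pairing of mice between the groups. The groups share no replicate numbers, which does not show whether mice were paired. Depth limits Egf, Nrg2, Tgfa and Epgn most.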
